A study of Mus musculus with 6 samples.

Results

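Wnt ligands, secreted Wnt inhibitors and Wnt target genes were examined in primary aortic vascular smooth muscle cells (VSMCs) as a list of 10 named genes among the 18112 genes of the expression table. A gene entered by an exact match of its symbol, and no measured value was used in the match. The list itself was chosen with earlier results of these data known. The list holds 3 ligands (Wnt2, Wnt5a and Wnt5b), 5 secreted inhibitors (Sfrp1, Sfrp2, Frzb, Dkk2 and Dkk3) and 2 genes that the pathway itself is known to induce (Axin2 and Lef1). RNA-seq compared 3 libraries from Smyd2 fl/fl cells (the controls) with 3 libraries from Smyd2 SMC-/- cells (the knockouts), to ask which RNAs differ after loss of the lysine methyltransferase SMYD2 from smooth muscle. The Smyd2 SMC-/- mice carried floxed Smyd2 alleles, with loxP sites around exon 2, together with the Tagln-Cre (SM22α-Cre) transgene. Control littermates were homozygous for the same floxed allele and carried no Cre. Both groups had the C57BL/6 strain label, no treatment is named for either, and the methods put the mice at 8 to 10 weeks of age. The Tagln promoter is not confined to vascular smooth muscle, a known limit of this Cre line. The methods describe removal of adventitia and endothelium before the medial cells were cultured. Culture details conflict between the sources, with passage 6 and medium of 10% FBS in the labels against passage 4 and overnight starvation in the methods. The labels name a Promega RNA kit and an Illumina TruSeq library kit, whereas the methods name TRIzol and the BGISEQ-500 platform. Whether the 3 libraries of a group came from separate mice or separate cultures is not stated, so that p-values measure the spread between these libraries, which may be technical.

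Wnt proteins are lipid-modified ligands that leave the cell with the help of the carrier Wls and bind Frizzled receptors, with LRP5 or LRP6 as co-receptors in the canonical branch. Canonical signalling stabilises β-catenin, which acts with TCF/LEF factors in the nucleus, whereas ligands such as Wnt5a are best known for branches through planar polarity and calcium. Secreted inhibitors either capture the ligand, as the Sfrp family and Frzb do, or occupy the co-receptors, as several Dkk proteins do, and Wnt signals are known to act on proliferation, migration and survival of smooth muscle in the injured vessel wall.

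Smyd2, the deleted gene, was listed at 7.87, 3.10 and 3.0 FPKM in control replicates 1, 2 and 3 and at 1.67, 0.40 and 0.80 FPKM in knockout replicates 1, 2 and 3. FPKM is a fragment number corrected for transcript length and for how many fragments the library mapped. The knockouts were all lower than the controls, and replicate 1 was the highest in each group. The log2 difference was −1.48 (SE 0.389, adjusted p = 0.105 from limma), against 0.0189 when the fit took the replicate number as a block, within a range of 0.00126 to 0.305 over the alternatives tried. The value covers the whole transcript, and fragments from exons outside the deletion still count toward it.

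Log2 differences are Smyd2 SMC-/- minus Smyd2 fl/fl on log2(FPKM + 1), a scale on which the change of a gene at low FPKM comes out too small. A gene was tested with limma when its mean over the 6 libraries was at least 0.5 FPKM, and it was called at an adjusted p under 0.05 after Benjamini-Hochberg adjustment over all 12565 genes tested. Replicate 1 stood apart from replicates 2 and 3 in both groups, with correlations of −0.51 to −0.56 between its deviations from the group mean and those of replicates 2 and 3 of the other group. Results are therefore also given in replicates 2 and 3 alone, where each group has 2 libraries. A single gene cannot go below p = 0.1 in a two-sided exact permutation test of 3 against 3 libraries. The estimated depth was between 16100000 and 18800000 fragments in a library, so that 1 fragment on a transcript of 2000 bases was worth between 0.0266 and 0.0311 FPKM.

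Among the 10 genes, Dkk3 was lower in knockout cells and was the only one called. Wnt5a, Sfrp2 and Dkk2 had higher values in each knockout library than in any control library, and Frzb was lower in knockout cells in replicates 2 and 3 and higher in replicate 1. Wnt2, Wnt5b, Dkk2, Axin2 and Lef1 had means under 0.5 FPKM and were not tested. So 5 of the 10 genes were tested, and 1 of them, in the lower direction, was called by limma, where 2.44% of all tested genes were called (1.21% of all tested genes lower and 1.23% higher). No gene of the list was called higher by limma, although 2 were higher at an unadjusted p under 0.05. In either direction 4 of the 5 passed an unadjusted p under 0.05 in limma, as did 2556 of all 12565 genes. Under a block on the replicate number the count remained at 1 of 5, while the share of all genes called rose to 10.4%. With a block that sets replicate 1 against replicates 2 and 3, 2 of the 5 were called, against 20.3% of all genes. In replicates 2 and 3 alone limma called 4 of the 5, Sfrp2 among them, against 29.0% of all genes. Sfrp2 passed the filter on low FPKM only through the knockout libraries where it is high. The list was also chosen with earlier results of these data known. The counts over the 5 tested genes and over all 10 are therefore descriptions and no support for a shift of the list. The libraries of the groups did not overlap for 3 of the 5 tested genes, where 28.1% of all tested genes did not overlap, and for 4 of all 10 genes, where 23.0% of the 18112 genes in the table did not. In bulk RNA, fewer cells of a type and less RNA per cell cannot be told apart.

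**Figure D1:**
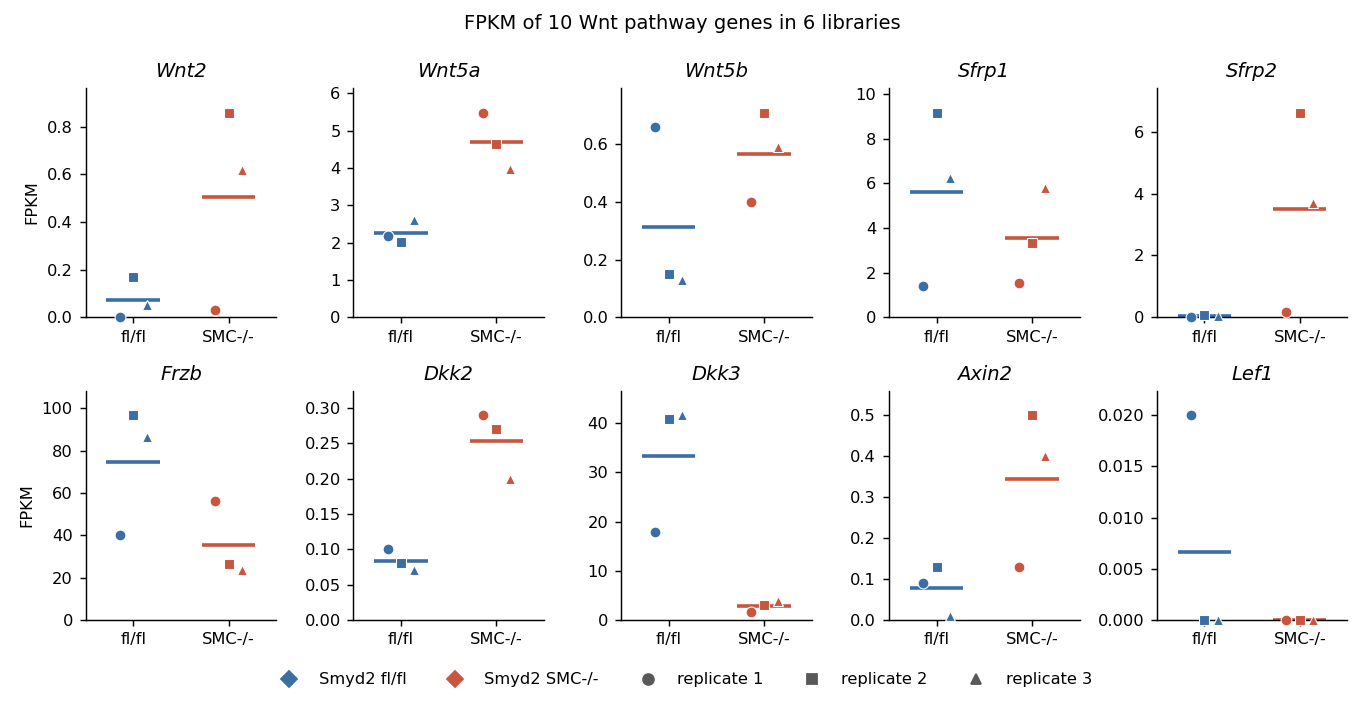
FPKM (vertical axis, linear and separate for each gene) of the 10 genes in the 6 libraries, with controls (Smyd2 fl/fl) in blue and knockouts (Smyd2 SMC-/-) in red; symbols mark replicates 1, 2 and 3 and the horizontal bar is the mean of 3 libraries. Dkk3 lies at 17.78 to 41.62 FPKM in the controls and 1.49 to 3.77 FPKM in the knockouts, while Lef1 is at 0.02 FPKM or less throughout.

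Among the ligands, Wnt5a, the noncanonical ligand with known roles in cell polarity and migration, was listed at 2.17, 2.02 and 2.61 FPKM in control replicates 1, 2 and 3 and at 5.48, 4.65 and 3.96 FPKM in knockout replicates 1, 2 and 3. All knockout libraries were above all control libraries, and the means were farther apart than the libraries of either group were from one another. The group means were 2.27 ± 0.307 FPKM (SD, n = 3) and 4.70 ± 0.761 FPKM (SD, n = 3). The log2 difference was 0.80 (SE 0.173), above the median of −0.018 over all tested genes, and it did not pass the threshold (adjusted p = 0.0688 from limma). The difference passed with the block of replicate 1 against replicates 2 and 3 (adjusted p = 0.0159 from limma) and in replicates 2 and 3 alone (0.0152) but not with the replicate number as a block (0.0502), within a range of 0.0152 to 0.23 over the alternatives. Same-numbered libraries differed by 1.03, 0.90 and 0.46 on the log2 scale, all upward. At an estimated 265 to 618 fragments in a library, Wnt5a is the best measured of the 3 ligands.

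Wnt2, a ligand of the canonical branch, was listed at 0, 0.17 and 0.05 FPKM in control replicates 1, 2 and 3 and at 0.03, 0.86 and 0.62 FPKM in knockout replicates 1, 2 and 3. The higher values were confined to knockout replicates 2 and 3, and knockout replicate 1 fell within the range of the controls. These levels correspond to about 36 and 25 fragments in the 2 high libraries and to at most 7 fragments in the other 4. Wnt5b, a close relative of Wnt5a, was listed at 0.66, 0.15 and 0.13 FPKM in the controls and at 0.40, 0.71 and 0.59 FPKM in knockout replicates 1, 2 and 3. Its groups overlapped, because replicate 1 was the highest control library and the lowest knockout library. The estimated fragments of Wnt5b were between 6 and 31 in a library, and its direction differed between replicate 1 (log2 difference −0.25) and replicates 2 and 3 (0.57 and 0.49). The two-sided exact permutation test gave p = 0.3 for Wnt2 and p = 0.3 for Wnt5b. Summed over the 3 ligands, the level was 2.83, 2.34 and 2.79 FPKM in the controls and 5.91, 6.22 and 5.17 FPKM in knockout replicates 1, 2 and 3. Most of this sum was Wnt5a in each library.

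Of the 19 Wnt ligand symbols listed, 16 were analysed and 5 had a mean of at least 0.5 FPKM. Wnt9a was the most abundant, at a mean of 4.94 FPKM over the 6 libraries, ahead of Wnt5a at 3.48 FPKM. Its levels of 1.04, 6.85 and 6.38 FPKM in the controls and 2.15, 7.29 and 5.92 FPKM in knockout replicates 1, 2 and 3 separated replicate 1 from the others and not the genotypes. Limma called none of the 5 tested ligands without a block. Their median log2 difference of 0.49 is a description only, since Wnt2b reached 0.5 FPKM on average only in the knockouts and Wnt10b only in the controls (both named after their values were seen). Wls, the membrane carrier that brings Wnt ligands to the cell surface, was far more abundant than any ligand, at 95.73, 93.79 and 89.71 FPKM in the controls and 119.17, 115.99 and 122.81 FPKM in knockout replicates 1, 2 and 3. The groups of Wls did not overlap, with a gap between them larger than the spread within either. Its log2 difference was 0.36 (SE 0.106, adjusted p = 0.135 from limma), and the adjusted p from limma was 0.0368 with the block of replicate 1 against replicates 2 and 3 and 0.0316 in replicates 2 and 3 alone, against 0.0751 with the replicate block, within a range of 0.0316 to 0.402.

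Turning to the secreted inhibitors, Dkk3, a divergent member of the Dickkopf family that is not a typical antagonist of LRP co-receptors, was listed at 17.78, 40.80 and 41.62 FPKM in control replicates 1, 2 and 3 and at 1.49, 3.07 and 3.77 FPKM in knockout replicates 1, 2 and 3. The groups were far apart, and within each of them replicate 1 had the lowest value. Mean levels were 33.4 ± 13.5 FPKM (SD, n = 3) and 2.78 ± 1.17 FPKM (SD, n = 3). The log2 difference was −3.15 (SE 0.392, adjusted p = 0.0164 from limma), lower in 3 of 3 same-numbered comparisons, which gave −2.92, −3.36 and −3.16. The call did not hold without control replicate 2 (adjusted p = 0.09 from limma), without control replicate 3 (0.0898), without knockout replicate 2 (0.08) or without knockout replicate 3 (0.0633), while the log2 difference was between −3.53 and −2.87 over all 6 fits that leave out 1 library. Over the alternatives the adjusted p ranged from 6.69e-06 to 0.09. Dkk3 (NCBI Gene 50781) lies on the minus strand at chr7:112116017-112159057 of GRCm38 in the GENCODE annotation.

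Frzb, also called Sfrp3, binds Wnt ligands outside the cell and was the most abundant of the 10 genes. It was listed at 40.30, 96.76 and 86.57 FPKM in control replicates 1, 2 and 3 and at 56.22, 26.29 and 23.51 FPKM in knockout replicates 1, 2 and 3. The groups overlapped through replicate 1, whose libraries lay between the high controls and the low knockout libraries and had the opposite order. The log2 difference was −1.07 (SE 0.439, adjusted p = 0.239 from limma), made of 0.47 in replicate 1, −1.84 in replicate 2 and −1.84 in replicate 3. With all 6 libraries the adjusted p from limma was 0.22 with the replicate block and 0.162 with the block of replicate 1 against replicates 2 and 3. In replicates 2 and 3 alone it was 4.97e-05, within a range of 4.97e-05 to 0.551 over the alternatives. That fit leaves out the pair of opposite order, so its low p-value is no support for a difference between the genotypes. Whether replicate 1 differs from replicates 2 and 3 in the direction of Frzb was not tested.

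Sfrp2, a secreted Frizzled-related protein, was listed at 0, 0.08 and 0.05 FPKM in control replicates 1, 2 and 3 and at 0.17, 6.63 and 3.70 FPKM in knockout replicates 1, 2 and 3. It was near 0 in all controls and in knockout replicate 1, and high in the other 2 knockout libraries, with no overlap between the groups. The estimated fragments were 0, 3 and 2 in the controls against 5, 245 and 135. The log2 difference was 1.74 (SE 0.650, adjusted p = 0.207 from limma), with same-numbered differences of 0.23, 2.82 and 2.16. It was 2.52 without knockout replicate 1 (adjusted p = 0.00915 from limma), 1.17 without knockout replicate 2 (0.427) and 1.52 without knockout replicate 3 (0.485), and without the filter the adjusted p was 0.275. With a pseudocount of 0.1 in place of 1 the log2 difference was 3.77 (adjusted p = 0.155 from limma). The 2 libraries that brought Sfrp2 past the filter are those in which it is high, so a low p-value in a fit that sets knockout replicate 1 aside is no support for a difference between the genotypes.

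Sfrp1, another ligand-binding inhibitor of the same family, was listed at 1.39, 9.16 and 6.23 FPKM in the controls and at 1.51, 3.32 and 5.77 FPKM in knockout replicates 1, 2 and 3. Replicate 1 was low in both groups, and the groups overlapped. The log2 difference of −0.42 (SE 0.602, adjusted p = 0.761 from limma) was smaller than its error, and it was 0.01 without control replicate 2. Dkk2, which binds LRP5 and LRP6, was listed at 0.10, 0.08 and 0.07 FPKM in the controls and at 0.29, 0.27 and 0.20 FPKM in knockout replicates 1, 2 and 3. The groups of Dkk2 did not overlap, yet the levels stand for only 5 to 6 fragments in a control library and 13 to 18 in a knockout library. Without the filter on low FPKM the adjusted p of Dkk2 was 0.0822 from limma, and the 5 genes below the filter had adjusted p-values from 0.0822 to 0.829. Adding up the 5 inhibitors gave 59.57, 146.9 and 134.5 FPKM in the controls and 59.68, 39.58 and 36.95 FPKM in knockout replicates 1, 2 and 3. The sum was lower in knockout cells in replicates 2 and 3 and nearly equal between the groups in replicate 1, where the opposite difference in Frzb offset that in Dkk3.

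**Figure D2:**
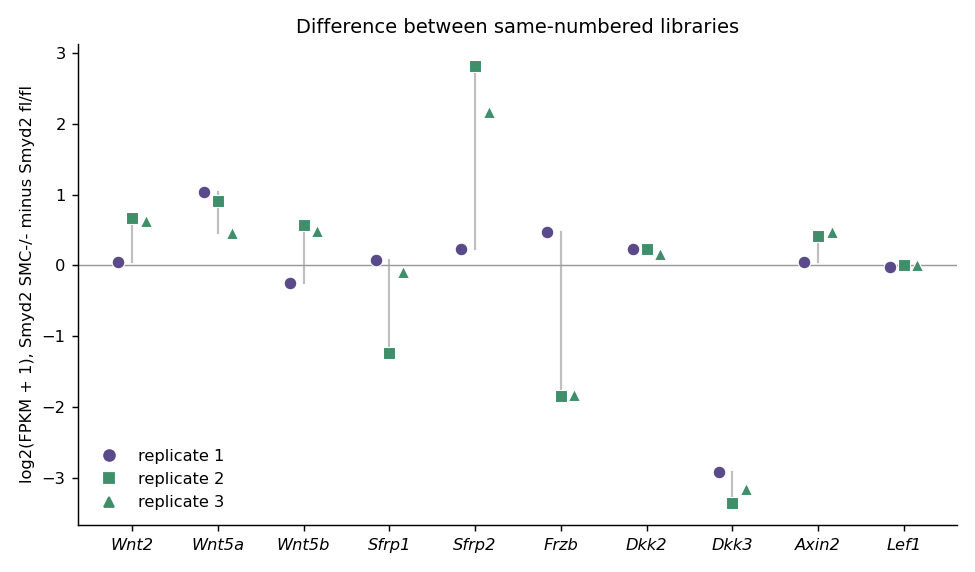
Difference in log2(FPKM + 1), Smyd2 SMC-/- minus Smyd2 fl/fl (vertical axis), between same-numbered libraries for each of the 10 genes; purple circles are replicate 1, green squares replicate 2 and green triangles replicate 3, and grey lines join the lowest and highest. Dkk3 is between −3.36 and −2.92 in all 3, while Frzb is at 0.47 in replicate 1 and at −1.84 in replicates 2 and 3.

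Of 14 listed secreted inhibitors, 12 were analysed, 5 were tested and 1, Dkk3, was called lower by limma without a block. Of all tested genes 1.21% were called lower in that fit. The median log2 difference of the 5 tested inhibitors was −0.42.

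The 2 target genes were low. Axin2, a scaffold of the β-catenin destruction complex that canonical signalling induces as a feedback inhibitor, was listed at 0.09, 0.13 and 0.01 FPKM in control replicates 1, 2 and 3 and at 0.13, 0.50 and 0.40 FPKM in knockout replicates 1, 2 and 3. Knockout replicates 2 and 3 stood above all other libraries, and knockout replicate 1 tied with the highest control. The estimated fragments of Axin2 were 7, 10 and 1 in the controls and 9, 39 and 31 in the knockout libraries, and the two-sided exact permutation test gave p = 0.2. Lef1, one of the TCF/LEF factors that carry β-catenin to DNA, was listed at 0.02 FPKM in control replicate 1 and at 0 in the other 5 libraries, so that no difference was detectable at this depth. Wnt2, Sfrp2 and Axin2 shared 1 pattern, with their 2 highest libraries in knockout replicates 2 and 3 and same-numbered log2 differences of 0.04, 0.23 and 0.05 in replicate 1.

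Promoter sequences, from 250 bases before to 50 bases after a transcription start, were taken from RefSeq on GRCm38.p6. They were matched to 7 of the 10 genes by NCBI Gene number, with 12 promoters among 32851 from 27025 genes. Wnt5a, Sfrp1 and Dkk3 had no entry. The letters searched on both strands were CTTTGAT and CTTTGAA, forms of the TCF/LEF motif that are alike but for the last letter, the CArG box known for smooth muscle genes, GGGCGG, the core of the GC box, and TATAAA. These are held by 3.73%, 5.14%, 1.63%, 35.7% and 13.6% of all promoters, and either TCF/LEF form by 8.65%. The sequences given are those of Frzb, the most abundant gene of the list, and Sfrp2, an inhibitor near 0 in all controls, then Axin2, the induced target, and the 1 promoter of the list with a TCF/LEF form, that of a start site inside the Wnt5b gene (chr6:119432531-119544347 on the minus strand). They lie at chr2:80447347-80447646 on the minus strand (Frzb), chr3:83766071-83766370 on the plus strand (Sfrp2), chr11:108920099-108920398 on the plus strand (Axin2) and chr6:119449337-119449636 on the minus strand (Wnt5b), each written 5′ to 3′ on its own strand with every match to the searched letters in capitals.
Frzb: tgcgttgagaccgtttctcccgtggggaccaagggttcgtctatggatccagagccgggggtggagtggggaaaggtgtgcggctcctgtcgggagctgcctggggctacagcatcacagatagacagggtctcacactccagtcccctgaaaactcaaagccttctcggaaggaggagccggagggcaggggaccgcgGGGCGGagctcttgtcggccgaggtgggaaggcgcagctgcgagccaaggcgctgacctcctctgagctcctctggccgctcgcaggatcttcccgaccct
Sfrp2: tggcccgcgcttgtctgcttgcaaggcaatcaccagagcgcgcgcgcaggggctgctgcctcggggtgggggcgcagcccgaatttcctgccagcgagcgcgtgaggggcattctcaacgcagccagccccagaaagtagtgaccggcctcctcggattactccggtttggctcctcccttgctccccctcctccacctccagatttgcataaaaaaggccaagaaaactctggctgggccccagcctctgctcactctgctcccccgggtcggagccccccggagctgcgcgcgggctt
Axin2: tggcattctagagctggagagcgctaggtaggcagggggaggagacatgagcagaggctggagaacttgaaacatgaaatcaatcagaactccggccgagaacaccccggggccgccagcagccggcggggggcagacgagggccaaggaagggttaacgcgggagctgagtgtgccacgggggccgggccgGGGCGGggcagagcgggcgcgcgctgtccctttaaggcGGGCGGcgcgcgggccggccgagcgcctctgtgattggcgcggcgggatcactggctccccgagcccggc
Wnt5b: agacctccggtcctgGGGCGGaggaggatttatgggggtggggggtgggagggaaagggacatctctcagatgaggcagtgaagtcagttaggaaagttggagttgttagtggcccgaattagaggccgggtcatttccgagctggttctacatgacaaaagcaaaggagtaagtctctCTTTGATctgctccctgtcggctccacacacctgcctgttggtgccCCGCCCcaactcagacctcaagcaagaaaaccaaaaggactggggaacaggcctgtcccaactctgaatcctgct
In the Wnt5b promoter CTTTGAT begins 71 bases before the start, and the other capitals are GGGCGG or its reverse complement. GGGCGG occurs in the Frzb promoter once and in the Axin2 promoter at 2 places, and none of the searched letters occur in that of Sfrp2. The Dkk2 promoter, not shown, has TATAAA beginning 32 bases before the start, and a Lef1 promoter has a CArG box 100 bases before it. The GC content of the 12 promoters was between 43.7% and 78.0%, with a median of 52.7% over all promoters. A match describes only the letters of this window.

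The wider pathway was described with 9 lists of 115 symbols, of which 108 were analysed and 71 tested. Of these 71 genes limma called 2 higher (Nkd1 and Fzd6) and 3 lower (Dkk3, Lrp5 and Tle4), against 154 higher and 152 lower of all 12565. After rescaling to TPM, which moved the median log2 difference of all genes by 0.107, from −0.018 to 0.0888, the split over all genes was 245 higher and 102 lower. Differences of the named genes are read against these medians, and none of the tested genes of the list of 10 changed direction against them. With the replicate block the pathway counts were 4 higher and 4 lower, and those of all genes 593 higher and 719 lower. In replicates 2 and 3 alone they were 14 higher and 10 lower, against 1494 and 2156. The groups did not overlap for 23 of the 71 genes, where 28.1% of all tested genes did not, 14 with the knockouts above and 9 with the knockouts below. Of the 14, 5 had reached a mean of 0.5 FPKM in the knockouts only, as had 5 of the 14 called higher in replicates 2 and 3 alone, so neither split is support for a direction. In all, 6 of the 71 reached it in the knockouts only and 1 in the controls only, against 313 and 210 of all tested genes, and none of these 7 was called without a block. The median log2 difference of the 71, and the list medians given with it, are descriptions for the same reason, and that of the 71 was 0.08.

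**Figure D3:**
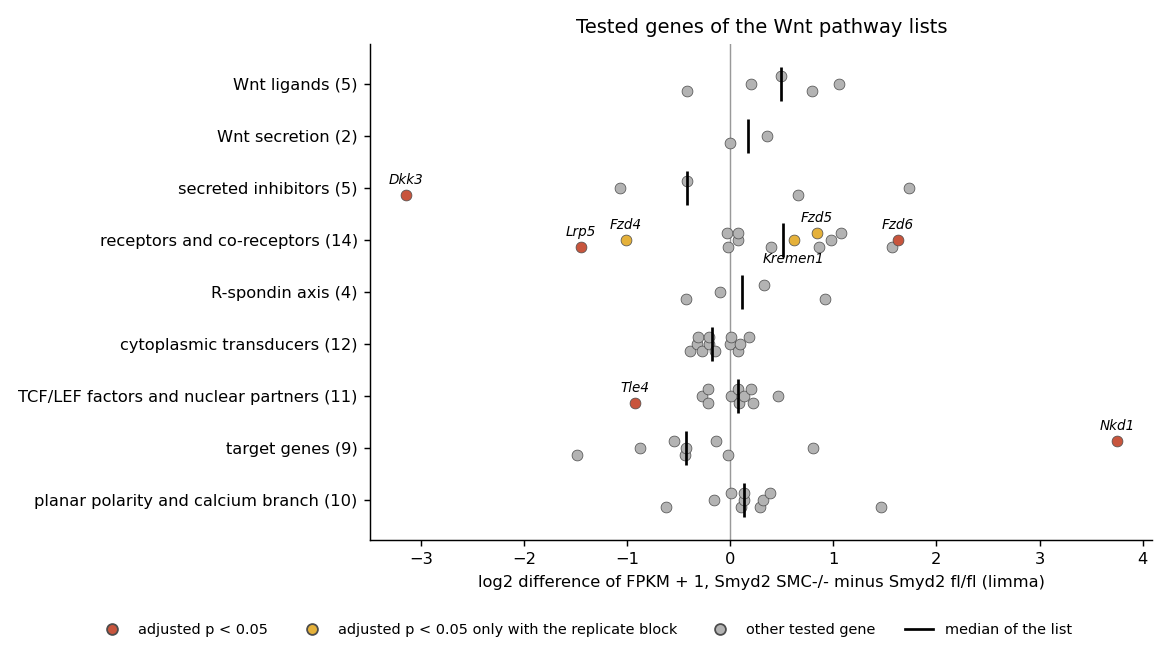
Log2 difference of each tested gene, Smyd2 SMC-/- minus Smyd2 fl/fl (horizontal axis), in 9 lists of Wnt pathway genes, with the number tested in brackets and the list median as a black line; red points have an adjusted p under 0.05 in limma, yellow points only with the replicate block, and vertical offsets within a list carry no value. Dkk3 at −3.15 and Nkd1 at 3.75 lie farthest from 0 among the 71 genes.

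Among receptors and co-receptors, 14 of 17 analysed genes were tested, with 1 higher and 1 lower, and their median log2 difference was 0.51. Lrp5, a co-receptor of the canonical branch, was listed at 39.13, 41.02 and 42.29 FPKM in the controls and at 10.48, 16.54 and 16.85 FPKM in knockout replicates 1, 2 and 3. The controls lay close together and well above every knockout library. The log2 difference of Lrp5 was −1.45 (SE 0.194, adjusted p = 0.0208 from limma). That call did not hold without control replicate 2 (adjusted p = 0.109 from limma), control replicate 3 (0.12), knockout replicate 2 (0.0786) or knockout replicate 3 (0.0744), and the log2 difference was between −1.56 and −1.24 over all 6 fits that leave out 1 library. Fzd6, a Frizzled receptor known from planar polarity, was listed at 6.49, 6.05 and 6.06 FPKM in the controls and at 33.92, 17.32 and 16.24 FPKM in knockout replicates 1, 2 and 3. The groups of Fzd6 did not overlap, and knockout replicate 1 was the highest library. Its log2 difference was 1.63 (SE 0.279, adjusted p = 0.0421 from limma). The call of Fzd6 did not hold without the filter (adjusted p = 0.0654 from limma), nor without control replicate 1 (0.0787), 2 (0.169) or 3 (0.169) or knockout replicate 2 (0.119) or 3 (0.108), and all 6 such fits had log2 differences between 1.3 and 1.81.

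In the replicate block, under which 10.4% of all genes were called, 3 more receptor genes were called. Fzd5, a Frizzled receptor, was listed at 4.68, 9.70 and 9.41 FPKM in the controls and at 10.56, 15.84 and 17.79 FPKM in knockout replicates 1, 2 and 3, with replicate 1 lowest in each group and no overlap. At a log2 difference of 0.84, its adjusted p from limma was 0.197, or 0.0261 in the block fit. With each library left out the log2 difference of Fzd5 was between 0.55 and 1.05, lowest without control replicate 1. Kremen1, a receptor of Dkk proteins, was listed at 7.18, 10.68 and 10.64 FPKM in the controls and at 11.63, 16.16 and 17.49 FPKM in knockout replicates 1, 2 and 3. It had the same layout as Fzd5, with a log2 difference of 0.62 and an adjusted p from limma of 0.186 without the block and 0.0320 with it. Fzd4, known as the receptor of Norrin in vessels, was listed at 4.32, 8.44 and 10.47 FPKM in the controls and at 2.24, 4.48 and 2.95 FPKM in knockout replicates 1, 2 and 3. It was lower in knockout cells within each number although the groups overlapped, with a log2 difference of −1.01 and an adjusted p from limma of 0.166 without the block and 0.0459 with it. Over the alternatives the adjusted p ranged from 0.00248 to 0.486 for Fzd5, from 0.00502 to 0.483 for Kremen1 and from 0.00377 to 0.403 for Fzd4. Fzd2 was the most abundant receptor, at 62.08, 61.46 and 58.98 FPKM in the controls and 91.59, 55.77 and 51.97 FPKM in knockout replicates 1, 2 and 3, on both sides of the controls.

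**Figure D4:**
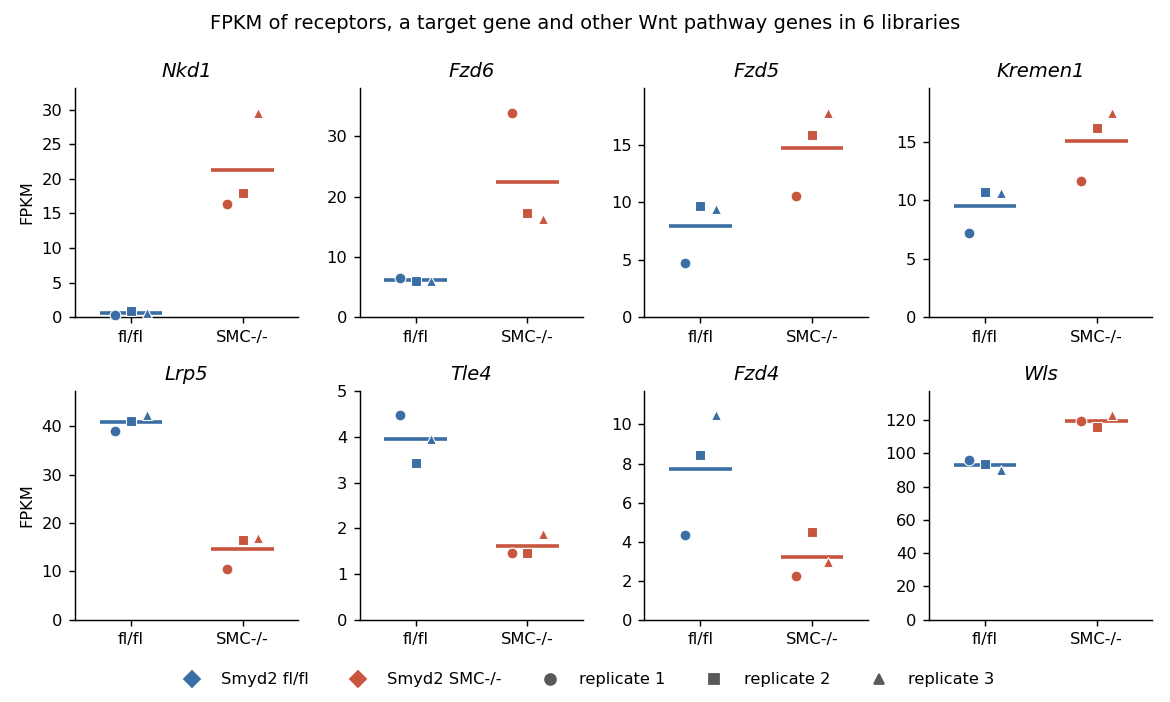
FPKM (vertical axis, linear from 0 and separate for each gene) of Nkd1, 5 receptor genes, Tle4 and Wls in the 6 libraries, with controls (Smyd2 fl/fl) in blue and knockouts (Smyd2 SMC-/-) in red; symbols mark replicates 1, 2 and 3 and the bar is the mean of 3 libraries. Nkd1 is at 0.89 FPKM or less in every control library and at 16.30 FPKM or more in every knockout library.

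Of 20 target genes analysed, Axin2 and Lef1 included, 9 were tested and 1 was called, Nkd1, at a list median of −0.43. Nkd1, a Dishevelled-binding feedback inhibitor, was listed at 0.32, 0.89 and 0.65 FPKM in control replicates 1, 2 and 3 and at 16.30, 17.98 and 29.56 FPKM in knockout replicates 1, 2 and 3. It was low in all 3 controls and high in all 3 knockout libraries, replicate 1 included. The means were 0.620 ± 0.286 FPKM (SD, n = 3) and 21.3 ± 7.22 FPKM (SD, n = 3). The log2 difference was 3.75 (SE 0.264, adjusted p = 0.00246 from limma), and the call held under every alternative run, at adjusted p-values up to 0.0267. Nkd1 and Axin2, both known as feedback targets, thus differed by far in level, since Axin2 reached only 0.50 FPKM. Ccnd1, a cell cycle target, was the most abundant of the list, at a mean of 96.5 FPKM and with overlapping groups. Against the direction of Nkd1, 3 of the 9 tested targets were lower in the knockouts without overlap, where 1891 of all 12565 genes were. The 3 targets were Myc (log2 difference −0.54, adjusted p = 0.147 from limma), Cd44 (−0.87, 0.177) and Fosl1 (−1.49, 0.344), named after their values were seen and not called. Fosl1 was at 54.89, 6.18 and 6.67 FPKM in the controls and 4.25, 5.48 and 3.08 FPKM in knockout replicates 1, 2 and 3. Control replicate 1 thus stood far above all its other libraries.

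Ctnnb1, the gene of β-catenin, had a mean of 155.5 FPKM, and its levels of 117.39, 180.14 and 173.03 FPKM in the controls and 167.84, 143.55 and 150.86 FPKM in knockout replicates 1, 2 and 3 overlapped. None of the 12 cytoplasmic transducers, all of them tested, was called by limma with or without the replicate block, and their log2 differences were between −0.39 and 0.18. In replicates 2 and 3 alone 1 of the transducers was called lower. Among 13 TCF/LEF factors and nuclear partners 11 were tested, and Tle4, a Groucho-type corepressor that binds TCF/LEF factors, was called lower. It was listed at 4.48, 3.44 and 3.97 FPKM in the controls and at 1.47, 1.47 and 1.89 FPKM in knockout replicates 1, 2 and 3, with no overlap. Its log2 difference was −0.93 (SE 0.168, adjusted p = 0.0474 from limma). The call did not hold without the filter (adjusted p = 0.058 from limma) or after TPM scaling (0.0681), nor without control replicate 1 (0.0803), 2 (0.161) or 3 (0.188) or knockout replicate 2 (0.169) or 3 (0.167), and all 6 such fits had log2 differences between −1.0 and −0.85. Bcl9l, a β-catenin coactivator, was the most abundant nuclear partner at a mean of 30.3 FPKM. Neither the R-spondin axis, with 4 tested genes and Lgr4 as the most abundant at 3.65 FPKM, nor the planar polarity and calcium branch, with 10 tested genes and Daam2 as the most abundant at 58.0 FPKM, held a called gene without or with the replicate block. In replicates 2 and 3 alone, where 29.0% of all genes were called, the R-spondin axis had 1 higher call. The planar polarity and calcium branch had 1 higher and 1 lower call there and with the block of replicate 1 against replicates 2 and 3. The medians of these 2 lists were 0.11 and 0.14 on the log2 scale.

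Lrp5 and Tle4 lie on chromosome 19, as does Acta2. The 422 tested genes of chromosome 19 had a median log2 difference of −0.424, which is −0.406 relative to all genes, and the medians within replicates 1, 2 and 3 were −0.347, −0.477 and −0.426. On that chromosome 25 genes were called lower and 4 higher by limma. The shift is not particular to it, as chromosome 10 had a median of −0.366 (21 lower and 5 higher called) and chromosome 5 one of 0.279 (2 lower and 15 higher called). Its part in the lower values of Lrp5 and Tle4 was not tested. Dkk3 lies on chromosome 7, whose 866 tested genes had a median of −0.0445, and Nkd1 on chromosome 8, whose 635 tested genes had a median of 0.0473. Fzd6 lies on chromosome 15, whose 454 tested genes had a median of −0.123, with 11 called higher and 1 lower.

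The smooth muscle label was checked with markers. Of 14 smooth muscle markers 10 were tested, and the 14 together summed to 1619, 1359 and 1373 FPKM in the controls and 587.3, 851.2 and 828.0 FPKM in knockout replicates 1, 2 and 3. Acta2, smooth muscle actin, was the most abundant, at 761.48, 682.39 and 682.96 FPKM against 200.95, 267.89 and 262.10 FPKM, and was the 1 marker of the list called lower (log2 difference −1.55, SE 0.153, adjusted p = 0.00803 from limma). That call did not hold without control replicate 2 (adjusted p = 0.0541 from limma), control replicate 3 (0.0615) or knockout replicate 3 (0.0533). The log2 difference of Acta2 was between −1.62 and −1.41 over all 6 fits that leave out 1 library. Myh11 and Myocd, which define contractile smooth muscle, were near 0 in both groups, at 0.22 FPKM or less and 0.48 FPKM or less. Acta2 was thus abundant while these 2 markers were near 0. With the replicate block Cald1, named after its values were seen, was called lower as well (adjusted p = 0.0488 from limma). The median log2 difference of the 10 was −0.744, and 4 were lower without overlap and none higher, against 1891 lower and 1642 higher without overlap of all 12565 genes. Only Mylk and Lmod1, also named after their values were seen, were above 0 (log2 differences 0.81 and 0.24, adjusted p = 0.505 and 0.817 from limma). In replicates 2 and 3 alone 2 smooth muscle markers were higher and 3 lower, against 1494 higher and 2156 lower of all genes.

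Markers of other cell types moved with the Wnt genes in some libraries. The sum of 11 fibroblast markers was 381.7, 1054 and 913.1 FPKM in the controls and 159.4, 742.9 and 729.8 FPKM in knockout replicates 1, 2 and 3. It was low in replicate 1 of both groups as Dkk3, Sfrp1 and Wnt9a were. Dpt was instead highest in replicate 1 of both groups, and Pdgfra and Serpinf1 were highest in knockout replicate 1 (named after their values were seen). The other fibroblast markers were lowest in replicate 1 of both groups. Dcn, the most abundant of them, was at 13.88, 311.00 and 256.65 FPKM against 25.59, 382.86 and 350.45 FPKM. Dpt and Serpinf1, named after their values were seen, were the 2 of 11 tested fibroblast markers called lower by limma without a block (log2 differences −5.28 and −3.0, adjusted p = 0.00417 and 0.00246). With the replicate block 5 were lower and 1 higher, against 719 lower and 593 higher of all 12565 genes. These were the same 2 with Cd34, Ly6a and Tnxb as the lower ones and Col14a1 as the higher one, also named after their values were seen. The 6 mesothelial markers, all tested, summed to 65.92, 211.5 and 214.6 FPKM in the controls and 38.71, 308.4 and 176.7 FPKM in knockout replicates 1, 2 and 3. Upk1b, the most abundant of them by its mean over the 6 libraries, was the highest of the list only in knockout replicates 2 and 3. It had an adjusted p of 0.669 from limma and of 0.0333 with the replicate block. Its log2 difference was 1.11, which was 0.0249 without control replicate 1 and 2.14 without knockout replicate 1. Krt19, named after its values were seen, was the 1 of 6 called lower without a block (log2 difference −2.10, adjusted p = 0.0317). With the replicate block 3 of the 6 were higher, Upk1b together with Upk3b and Wt1, and 1 lower, Krt19. In replicates 2 and 3 alone 3 were higher and 3 lower, against 1494 higher and 2156 lower of all 12565 genes. Msln and Lrrn4 had log2 differences of −0.911 and −0.957 over all 6 libraries (Upk3b, Wt1, Msln and Lrrn4 were likewise named after their values were seen). Schwann and neural markers, 2 of 5 tested, summed to 1.31, 2.52 and 2.08 FPKM in the controls and 2.40, 13.64 and 8.58 FPKM in knockout replicates 1, 2 and 3. As for Sfrp2, the 2 highest were knockout replicates 2 and 3. S100b was the most abundant of them (log2 difference 1.71, adjusted p = 0.236 from limma, and 2.53 with adjusted p = 0.0207 without knockout replicate 1, 1.13 with 0.476 without knockout replicate 2 and 1.48 with 0.529 without knockout replicate 3), and Sox10, which defines these cells, was at 0.02 FPKM or less.

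Endothelial markers, 2 of 10 tested, summed to between 2.89 and 6.94 FPKM in a library, with Kdr as the most abundant (log2 difference 1.16, adjusted p = 0.186 from limma, and 1.60 with adjusted p = 0.0277 without knockout replicate 1, 0.78 with 0.378 without knockout replicate 2 and 1.10 with 0.441 without knockout replicate 3) and Cdh5 and Tie1 at 0.01 FPKM or less. Kdr led the list by its mean over the 6 libraries and in each knockout library, while Flt1 was the highest in each control library. Flt1 and Pecam1, named after their values were seen, were lower in the knockouts without overlap. Flt1 was at 1.36 FPKM or more in the controls and 1.30 FPKM or less in the knockouts (log2 difference −0.565, adjusted p = 0.293 from limma), and Pecam1, below the filter, at 0.56, 0.88 and 0.92 FPKM against 0.12, 0.18 and 0 FPKM. Macrophage markers, 3 of 10 tested, summed to between 5.04 and 9.04 FPKM, with Cd68 as the most abundant and Ptprc and Adgre1 at 0.02 FPKM or less. The other 2 tested, named after their values were seen, differed in direction, Csf1r higher without overlap (log2 difference 0.648, adjusted p = 0.102 from limma) and Lyz2 lower with overlap (−0.638, adjusted p = 0.398). Adipocyte markers, 2 of 5 tested, summed to 10.77, 13.04 and 9.99 FPKM in the controls and 122.4, 7.5 and 7.95 FPKM in knockout replicates 1, 2 and 3, where the high library held 118.57 FPKM of Fabp4. Pparg, the other tested one and named after its values were seen, was lower in the knockouts without overlap (log2 difference −1.06, adjusted p = 0.107 from limma), and Adipoq, Plin1 and Cidec were at 0.09 FPKM or less. No gene of the endothelial, macrophage, Schwann and neural or adipocyte lists was called by limma without or with the replicate block. With the block of replicate 1 against replicates 2 and 3, 1 gene of each list was called, against 20.3% of all genes. It was higher in the endothelial, macrophage, and Schwann and neural lists and lower in the adipocyte list. In replicates 2 and 3 alone the counts by direction were equal to these, with 1 lower macrophage marker besides, against 29.0% of all genes. The part of these markers in the Dkk3, Frzb, Sfrp2 and Wnt2 values was not tested.

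**Figure D5:**
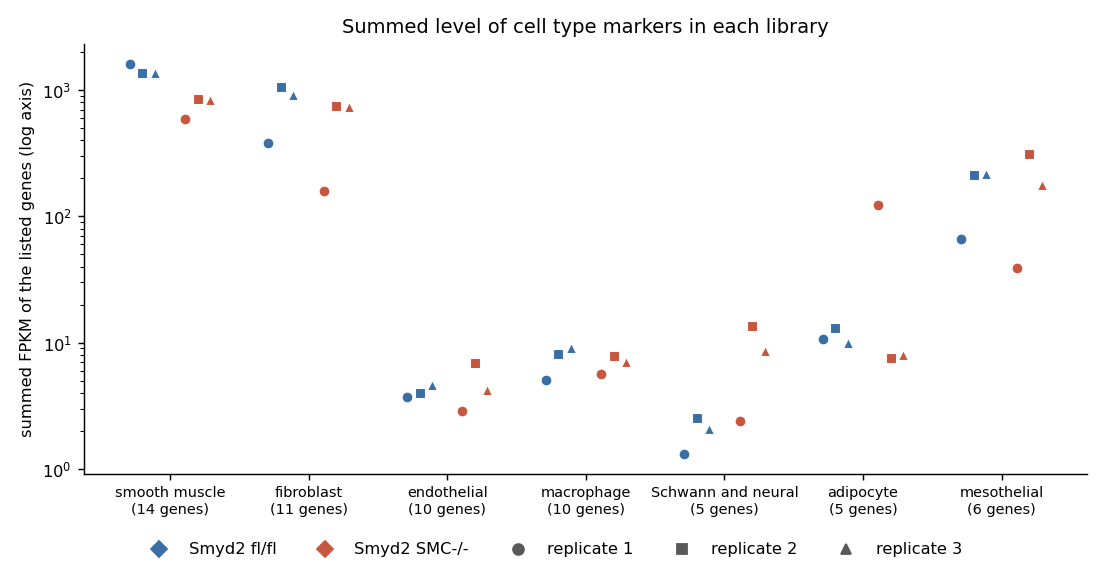
Summed FPKM of the listed markers of each cell type (vertical log axis) in the 6 libraries, with controls (Smyd2 fl/fl) in blue, knockouts (Smyd2 SMC-/-) in red and symbols for replicates 1, 2 and 3. Fibroblast and mesothelial sums are lowest in replicate 1 of each group, and the Schwann and neural sum is highest in knockout replicates 2 and 3 at 13.64 and 8.58 FPKM.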

How the data were processed

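The 6 RNA-seq libraries, 3 of each genotype, were grouped and numbered by their labels, and each of the 6 columns of the table matched 1 sample. The authors used SOAPnuke for read filtering, HISAT and Bowtie2 for mapping and RSEM for expression, and deposited FPKM rounded to 2 decimals for 18112 genes. The genome build and tool versions are not given in the sources used here, and the raw counts behind the study's CPM were not analysed here.

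Values were transformed to log2(FPKM + 1), a mean of 0.5 FPKM or more was required, and the groups were compared in limma 3.58.1 under R 4.3.3 (linear model with moderated variances, trend and robust options on) with Benjamini-Hochberg adjustment over the 12565 genes kept. FPKM are not counts, so no count model was used. The fit was tested on simulated data with independent errors in each library. The simulation did not include the deviations that same-numbered libraries share here. Other steps used Python 3.11.15, pandas 2.3.3, numpy 2.4.6, scipy 1.17.1 and matplotlib 3.10.9.

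The 10 genes and the pathway and marker lists were chosen with earlier results of these data known. Named with values are the 10 genes, Smyd2, each pathway gene called without or with the replicate block, the most abundant gene of each list, and markers near 0. Further list genes, called, without overlap or unlike the rest of their list, were named after their values were seen. The gene most alike to a called one, which the plan also names, is not reported here. Lists are described by counts and medians and were not tested as sets.

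The replicate numbers come from the sample titles, and no source says what they stand for. Same-numbered libraries deviated together from their group means across genes, with correlations of 0.61, 0.46 and 0.53 for replicates 1, 2 and 3. A block on the number was run as an alternative because same-numbered libraries may be paired. Libraries numbered 2 and 3 correlated as well across the numbers (0.461 for control 2 with knockout 3 and 0.439 for control 3 with knockout 2), so the values set replicate 1 apart from the others and do not pair replicates 2 and 3 by number. Depth was read from the spacing of low FPKM in 4343 genes that list a single transcript whose length is known, with 61.2% to 66.0% of low values within 0.15 of a whole fragment where even spacing gives 30%. This gave 17450000, 18800000 and 18600000 fragments in the controls and 16100000, 18450000 and 18200000 in the knockouts (replicates 1, 2 and 3), approximate values that depend on the lengths assumed.

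Alternatives were a pseudocount of 0.1, no filter or a minimum mean of 1 FPKM, the replicate block, a block of replicate 1 against replicates 2 and 3, replicates 2 and 3 alone, leaving out each library, TPM scaling, quantile normalization, and a fold change over 2 with an adjusted p under 0.01, the cutoffs of the study's methods.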

Additional observations from a re-analysis of the deposited data

How the results depend on the processing

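Calls are from limma. Of the 10 genes none was called higher and 1 was called lower. Higher calls numbered 1 with the block of replicate 1 against replicates 2 and 3, 2 in replicates 2 and 3 alone (Sfrp2 among them), and 0 to 1 with each library left out (1, Sfrp2, without knockout replicate 1). Lower calls numbered 2 in replicates 2 and 3 alone, 0 at a fold change over 2 with an adjusted p under 0.01, and 0 to 1 with each library left out (0 without replicate 2 or 3 of either group). For the pathway, 2 higher calls became 4 with the replicate block, 11 with the block of replicate 1, 14 in replicates 2 and 3 alone, 1 at the stricter cutoffs, and 1 to 6 with each library left out (6 without knockout replicate 1 and 1 without any other). The 3 lower calls became 5 with the block of replicate 1, 10 in replicates 2 and 3 alone, 0 at the stricter cutoffs, and 0 to 3 with each library left out (0 without replicate 2 or 3 of either group). Over all genes, 154 higher calls became 593 with the replicate block, 1152 with the block of replicate 1, 1494 in replicates 2 and 3 alone, 27 at the stricter cutoffs, 245 after TPM scaling, and 16 to 27 without replicate 2 or 3 of either group or 373 without knockout replicate 1. The 152 lower calls became 719 with the replicate block, 1398 with the block of replicate 1, 2156 in replicates 2 and 3 alone, 26 at the stricter cutoffs, and 16 to 28 without replicate 2 or 3 of either group or 313 without knockout replicate 1. The cause of these changes was not tested.

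The direction turned for 7 genes that were not called. Sfrp1 was at −1.03 to 0.0105 on the log2 scale with each library left out (turned without control replicate 2). Wnt9a was at −0.00709 in replicates 2 and 3 alone and at −0.43 to 0.63 with a library left out (turned without control replicate 1 or knockout replicate 2), and Fzd2 at −0.16 and at −0.17 to 0.23 (without knockout replicate 1). Ctnnb1 was at 0.12 after TPM scaling, 0.0855 after quantile normalization and −0.20 to 0.11 with a library left out (turned without replicate 2 or 3 of either group), Ccnd1 at −0.45 to 0.15 (without control replicate 3 or knockout replicate 1) and Dcn at −0.89 to 1.79 (without control replicate 1 or knockout replicate 2 or 3). Cd68 was at 0.0589 in replicates 2 and 3 alone, 0.0941 after TPM scaling and −0.15 to 0.14 with a library left out (turned without control replicate 3 or knockout replicate 1). Of 397 results for 33 single genes under the alternatives, 323 kept direction and side of the threshold, 29 came to pass it, 24 no longer passed it and 21 turned. The replicate block changed the calls of Smyd2, Fzd4, Fzd5, Kremen1 and Upk1b as given above, those of the markers Cald1, Cd34, Col14a1, Ly6a, Tnxb, Upk3b and Wt1, and no other call of a named gene. Genes at a few fragments, such as Wnt2, Wnt5b, Dkk2, Axin2 and Lef1, are limited by depth. Their estimated fragments are given without an error.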
